A study of Rattus norvegicus with 9 samples.

Results

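Genes of lymphocytes and of leukocytes in general were followed in the kidneys of 9 rats. The genes are Lck, Cd3e, Cd4, Cd2, Cd5, Nkg7, Ptprc, Coro1a, Cd53 and Il7r, taken by symbol from the table of all genes. A row carried the symbol of 9 of these 10 genes, each once, out of 36267 features in the table, and Il7r, the interleukin 7 receptor chain, was not analysed here. The study asked how icariin, a plant flavonoid glycoside, bears on contrast-induced acute kidney injury (CIAKI). Rats weighed 180 to 200 g, and each group held 3 animals. Icariin rats received icariin by gavage at 100 mg/kg once a day for 3 days, then furosemide by gavage at 200 mg/kg, dehydration of 6 h and iopromide, an iodinated contrast medium of 370 mg I/mL, at 15 mL/kg into the tail vein. CIAKI rats received the same furosemide, dehydration and iopromide without icariin, and control rats were untreated. No group had icariin alone, so its effect without the injury was not measured. No group had furosemide and dehydration without contrast medium, so what each of these adds cannot be told apart. The labels do not state strain, sex or the time from contrast medium to removal of the kidney.

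T cells recognise antigen through the T cell receptor, whose CD3 chains carry the signal into the cell. The Src family kinase Lck, held at the co-receptors CD4 and CD8, phosphorylates those chains and so starts the signal, and the phosphatase CD45, encoded by Ptprc, switches Lck on and off by removing its phosphates. CD2 is an adhesion and co-stimulatory receptor of T and NK cells, CD5 damps receptor signalling in T cells and in some B cells, and Nkg7 is a membrane protein of cytotoxic granules. Coro1a, an actin regulator, and Cd53, a tetraspanin, are found across the leukocytes. Cd4 is not restricted to T cells in rats, whose monocytes and macrophages carry it too. Healthy kidney holds few lymphocytes beside many resident macrophages, so transcripts of T cells are rare in RNA from the whole organ.

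The starts of the genes on which the results turn are shown from RefSeq on the rat build GRCr8, 250 bases upstream of each start, 5′ to 3′ on the gene's own strand. Both starts that RefSeq lists for Lck are given because this gene has an upstream and a downstream promoter, and Cd3e, Nkg7 and Ptprc stand for the T cell receptor, the cytotoxic and the general leukocyte genes. Capitals mark the core AGGAAG bound by ETS factors and the core TGTGGT bound by RUNX factors, or their reverse complements CTTCCT and ACCACA.
Lck, upstream start, chr5:147201268-147201517, minus strand: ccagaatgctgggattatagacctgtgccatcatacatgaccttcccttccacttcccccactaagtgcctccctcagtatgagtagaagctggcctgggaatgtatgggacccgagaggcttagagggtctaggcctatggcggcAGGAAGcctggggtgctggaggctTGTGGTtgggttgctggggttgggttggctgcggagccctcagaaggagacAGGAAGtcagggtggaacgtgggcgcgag
Lck, downstream start, chr5:147183651-147183900, minus strand: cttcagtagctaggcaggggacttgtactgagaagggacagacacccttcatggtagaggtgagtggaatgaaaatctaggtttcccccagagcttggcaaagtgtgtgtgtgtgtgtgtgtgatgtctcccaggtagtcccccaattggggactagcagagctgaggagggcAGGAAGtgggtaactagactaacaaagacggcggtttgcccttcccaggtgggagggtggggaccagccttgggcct
Cd3e, chr8:54211771-54212020, minus strand: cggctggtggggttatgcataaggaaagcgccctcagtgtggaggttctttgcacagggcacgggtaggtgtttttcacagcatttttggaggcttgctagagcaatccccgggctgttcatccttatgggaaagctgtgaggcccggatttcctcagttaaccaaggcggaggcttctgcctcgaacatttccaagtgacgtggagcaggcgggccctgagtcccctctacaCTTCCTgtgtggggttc
Nkg7, chr1:102981247-102981496, plus strand: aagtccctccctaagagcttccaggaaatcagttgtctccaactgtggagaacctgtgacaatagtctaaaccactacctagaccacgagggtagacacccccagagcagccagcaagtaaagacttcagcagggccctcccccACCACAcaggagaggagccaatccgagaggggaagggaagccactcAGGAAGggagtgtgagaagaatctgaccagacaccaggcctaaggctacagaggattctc
Ptprc, chr13:52259747-52259996, minus strand: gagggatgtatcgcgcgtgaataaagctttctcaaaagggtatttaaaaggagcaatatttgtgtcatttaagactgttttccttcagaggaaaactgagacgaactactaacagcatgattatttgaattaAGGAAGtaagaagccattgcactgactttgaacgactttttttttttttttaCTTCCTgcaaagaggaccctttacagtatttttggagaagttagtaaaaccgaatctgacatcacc
The ETS core lay in 8 of the 10 upstream windows that the table held for 9 of the 10 genes, Il7r included, against 29.5% of all 33469 windows of that length. The RUNX core lay in 4 of the 10 windows against 14.5% of all. A further 3 sets of letters were searched, again on both strands. The E box CANCTG lay in 7 of 10 windows against 43.3% of all, TGGGAA of the Ikaros family in 3 of 10 against 22.1%, and the GATA letters AGATAA in 0 of 10 against 10.3%. In the downstream Lck window the E box and the Ikaros letters share 2 bases. The upstream Lck window holds an ETS core 29 and 104 bases before the start and the RUNX core 80 bases before it, counted to the first base of the match, whereas the downstream window holds 1 ETS core, 77 bases before the start. These matches describe letters, not bound sites.

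Levels are in CPM, each library scaled to the same total, and 1 CPM is 64.4 to 90.4 reads of a library, from 64380578 to 90398405 counted reads in all. As a check of the groups, Havcr1, the tubular injury marker KIM-1, stood at 1.35 to 2.63 CPM in icariin, 229 to 742 CPM in CIAKI and 0.529 to 1.25 CPM in control kidneys. Library icariin 3, the deepest, was the lowest of its group in 6 of the 9 genes with a row, and CIAKI 3 was the lowest of its group in 5 of 9. Values without each library are given where they change a result.

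All 9 genes fell in CIAKI kidneys against control kidneys, to between 11.8% of the control mean for Cd3e and 56.3% for Cd53. In icariin kidneys the means lay between those of the other groups, at 33.4% of control for Cd5 up to 89% for Cd4. By limma on every feature with a read, 6 of the 9 genes rose against CIAKI. The Cd3e and Cd2 calls among them were lost in 8 and 10 of 19 alternative fits. None of the 9 passed the test between icariin and control kidneys. Of all 31852 features in that fit, 11.7% were called lower in CIAKI against control and 9.95% higher in icariin against CIAKI. Between icariin and control, 0.0628% were called lower and 0.1% higher. In RNA from whole kidney, fewer cells of a type and less RNA per cell cannot be told apart. Low levels were common: in CIAKI kidneys Lck, Cd3e, Cd2, Cd5 and Nkg7 were below 1 CPM in every library, in icariin kidneys Cd3e, Cd2, Cd5 and Nkg7 were, and in control kidneys Cd5 was below 1 CPM in every library and Cd2 in 1 of 3.

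**Figure D1:**
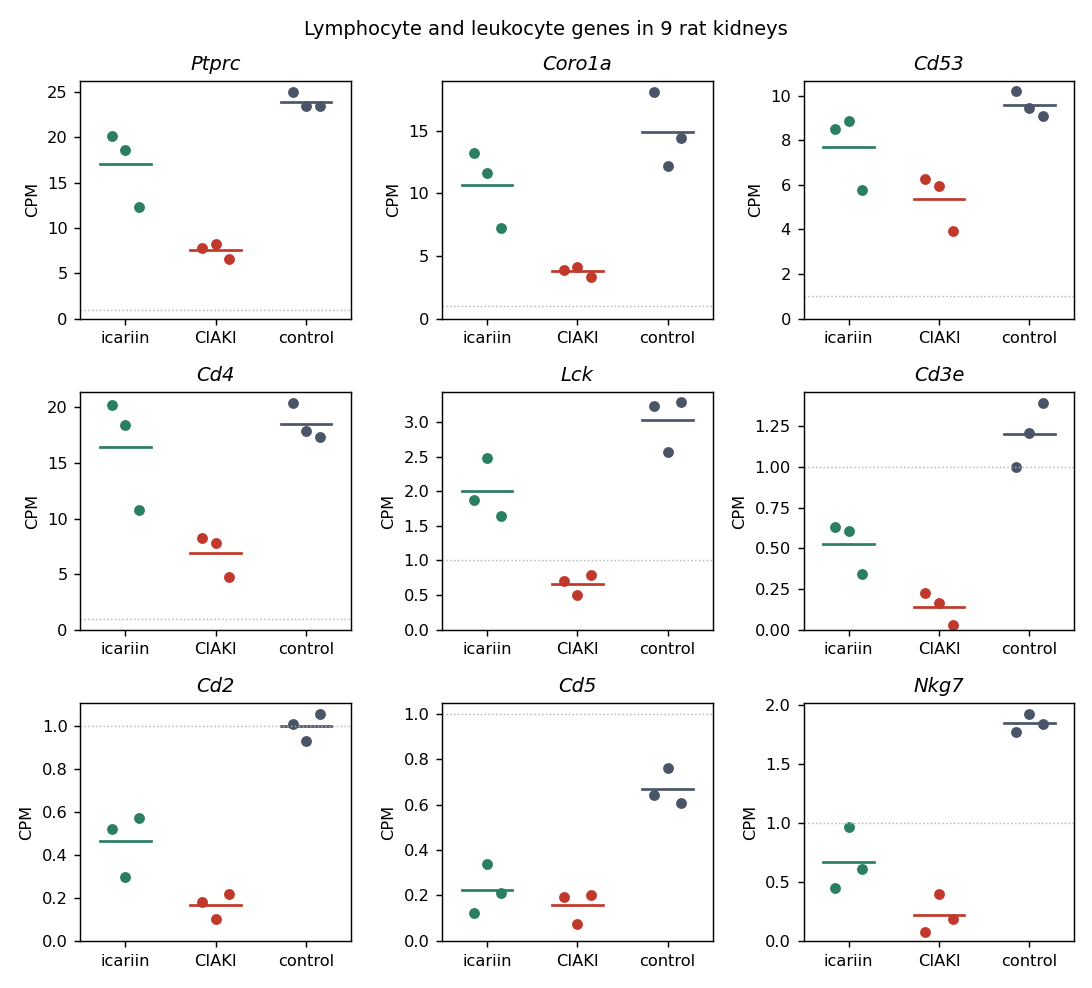
Level of each gene in CPM (linear axis from 0) in the kidneys of 3 icariin, 3 CIAKI and 3 control rats; points are libraries, bars are group means and the dotted line is 1 CPM. In every panel the 3 CIAKI kidneys lie below the 3 control kidneys, and the icariin mean lies between the other means.

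The kinase gene Lck (ENSRNOG00000009705) had 1.87, 2.48 and 1.64 CPM in icariin kidneys, 0.697, 0.505 and 0.792 CPM in CIAKI kidneys, and 3.23, 2.56 and 3.29 CPM in control kidneys. The 3 groups did not overlap at any point. Its means were 1.99 ± 0.434, 0.665 ± 0.146 and 3.03 ± 0.409 CPM in icariin, CIAKI and control kidneys (SD, n = 3 each), from 445, 143 and 663 reads. By limma on log2(CPM + 1), adjusted over all features tested, Lck fell in CIAKI against control, by 1.27 ± 0.16 on the log2 scale (SE, with an adjusted p of 0.00044). It rose in icariin against CIAKI by 0.84 ± 0.16 (adjusted p = 0.0035). Because adding 1 CPM shrinks the change of low genes, edgeR's quasi-likelihood test on whole reads gave larger values, -2.19 (adjusted p = 0.00048) and 1.58 (adjusted p = 0.0021).

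Cd3e (ENSRNOG00000016069), the epsilon chain of the T cell receptor complex, had 0.628, 0.609 and 0.343 CPM in icariin, 0.228, 0.163 and 0.031 CPM in CIAKI, and 1.00, 1.21 and 1.39 CPM in control kidneys. These came from 115, 32 and 262 reads in the 3 groups, and CIAKI 3 held 2 reads. Its level therefore lay lowest in every CIAKI library and highest in every control library, with icariin between them. Cd3e and Nkg7 met the filter on low values, at least 1 CPM in at least 3 libraries, only through the control kidneys, and Cd2 and Cd5 did not meet it, so these 4 genes are given from fits with no filter. The fall of Cd3e in CIAKI was -0.95 ± 0.12 by limma (adjusted p = 0.00091) and -3.05 by edgeR (adjusted p = 0.0044). Its rise in icariin against CIAKI was 0.42 ± 0.12 by limma (adjusted p = 0.035) and 1.85 by edgeR (adjusted p = 0.045). That call was lost in 8 of 19 alternatives.

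Among the co-receptors and adhesion molecules, Cd4 (ENSRNOG00000016294) had 20.2, 18.4 and 10.8 CPM in icariin, 8.26, 7.80 and 4.77 CPM in CIAKI, and 20.4, 17.9 and 17.3 CPM in control kidneys. Icariin 1 and 2 lay within the range of the control kidneys, and icariin 3 lay below all control kidneys and above all CIAKI kidneys. Cd4 fell in CIAKI against control by 1.32 ± 0.25 on the log2 scale (limma, adjusted p = 0.0028) and rose in icariin against CIAKI by 1.12 ± 0.25 (adjusted p = 0.0066). Cd2 (ENSRNOG00000015821) had 0.521, 0.297 and 0.575 CPM in icariin, 0.180, 0.104 and 0.217 CPM in CIAKI, and 1.01, 0.933 and 1.06 CPM in control kidneys. These groups did not overlap either. With no filter, Cd2 fell in CIAKI by limma (-0.78 ± 0.09, adjusted p = 0.00079; edgeR -2.57, adjusted p = 0.0026). Its rise in icariin against CIAKI, 0.32 ± 0.09, was called narrowly (adjusted p = 0.04; edgeR 1.47, adjusted p = 0.038). That call was lost in 10 of 19 alternatives, with adjusted p up to 0.13.

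Cd5 (ENSRNOG00000020872) did not separate icariin from CIAKI kidneys. It had 0.123, 0.340 and 0.210 CPM in icariin and 0.192, 0.0743 and 0.202 CPM in CIAKI kidneys, which overlap, against 0.644, 0.761 and 0.608 CPM in control kidneys. These values rest on 51, 34 and 146 reads in icariin, CIAKI and control. The fall in CIAKI passed the test (limma with no filter, -0.53 ± 0.08, adjusted p = 0.0024), and the difference between icariin and CIAKI, 0.08 ± 0.08, did not (adjusted p = 0.56). Nkg7 (ENSRNOG00000017749) had 0.444, 0.962 and 0.608 CPM in icariin, 0.0722, 0.401 and 0.186 CPM in CIAKI, and 1.77, 1.92 and 1.84 CPM in control kidneys. The highest CIAKI kidney lay just below the lowest icariin kidney, and all 6 lay below 1 CPM. Nkg7 fell in CIAKI against control (limma with no filter -1.23 ± 0.15, adjusted p = 0.00082; edgeR -3.05, adjusted p = 0.004). Its icariin to CIAKI difference of 0.45 ± 0.15 missed the threshold with no filter by limma (adjusted p = 0.064) and by edgeR (1.59, adjusted p = 0.073), and passed in 4 of 19 alternatives.

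Of the general leukocyte genes, Ptprc (ENSRNOG00000000655) had 20.1, 18.6 and 12.3 CPM in icariin, 7.80, 8.26 and 6.54 CPM in CIAKI, and 25, 23.4 and 23.4 CPM in control kidneys. No group overlapped another. Ptprc fell by 1.55 ± 0.17 on the log2 scale in CIAKI against control (limma, adjusted p = 0.00024) and rose by 1.06 ± 0.17 in icariin against CIAKI (adjusted p = 0.0016). Coro1a (ENSRNOG00000019430) had 13.2, 11.6 and 7.25 CPM in icariin, 3.86, 4.10 and 3.34 CPM in CIAKI, and 18.1, 12.2 and 14.4 CPM in control kidneys. Icariin 1 lay above the lowest control kidney, and every CIAKI kidney lay below both other groups. Coro1a fell in CIAKI by 1.73 ± 0.22 (adjusted p = 0.00041) and rose in icariin against CIAKI by 1.26 ± 0.22 (adjusted p = 0.0021).

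Cd53 (ENSRNOG00000017874) changed least among the 9 in CIAKI, as a share of control. It had 8.50, 8.85 and 5.76 CPM in icariin, 6.25, 5.96 and 3.93 CPM in CIAKI, and 10.2, 9.45 and 9.08 CPM in control kidneys. Icariin 3 lay below the 2 higher CIAKI kidneys. The fall in CIAKI was -0.75 ± 0.19 by limma (adjusted p = 0.014), and the icariin to CIAKI difference of 0.45 ± 0.19 missed the threshold (adjusted p = 0.096). Without icariin 3 that difference was 0.62 ± 0.18 and passed (adjusted p = 0.033).

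**Figure D2:**
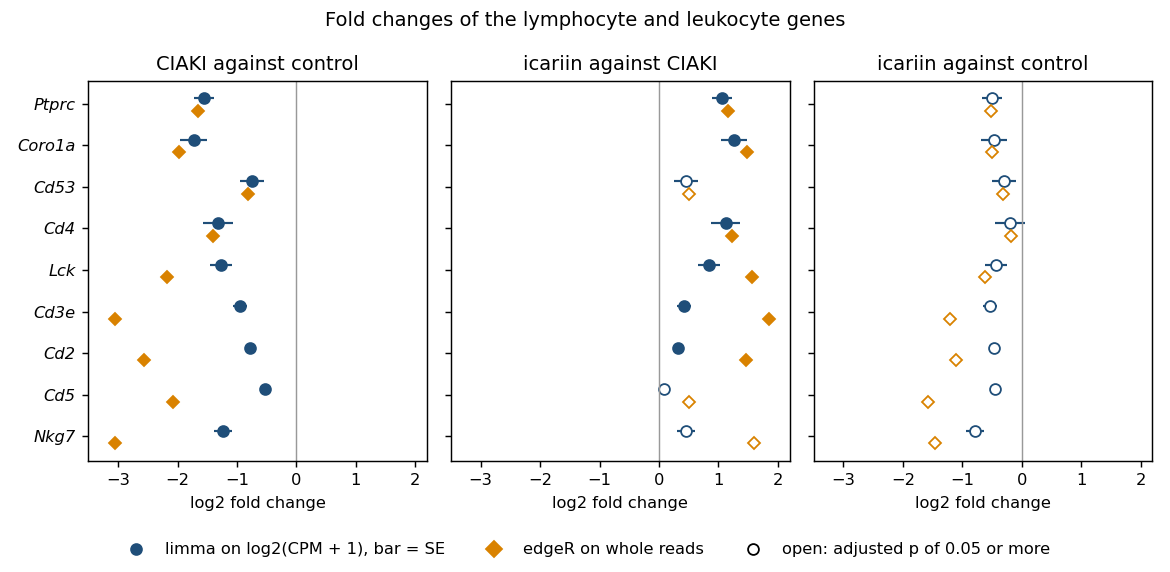
Log2 fold change of each gene in the 3 comparisons, by limma on log2(CPM + 1) with no filter on low values (circles, bars are SE) and by edgeR on whole reads, also with no filter (diamonds); filled symbols have an adjusted p below 0.05. All 9 genes are filled and below 0 for CIAKI against control, 6 circles are filled and above 0 for icariin against CIAKI, and none is filled for icariin against control.

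Read against all features, the 9 of 9 genes that fell in CIAKI with no filter compare with 11.7% of 31852 features called lower and 10.7% called higher. With the filter, 20.5% of 16731 features were called lower in CIAKI. For icariin against CIAKI, 6 of 9 rose with no filter against 9.95% of features called higher and 10.1% called lower. With the filter, 19.2% of features were called higher. When only icariin and CIAKI libraries entered the fit with no filter, 3 of 9 were called, namely Lck, Ptprc and Coro1a, against 6 by edgeR and 7 by DESeq2 on all libraries. With 1 library left out, 4 to 6 of 9 rose, and Lck, Ptprc and Coro1a were among them each time. Without CIAKI 3 or any 1 control library, 8 of 9 fell in CIAKI with no filter, Cd53 no longer passing. Counted by overlap alone, CIAKI lay wholly below control in 9 of 9 genes, against 26.5% of the 16731 features that met the filter. Icariin lay wholly above CIAKI in 7 of 9, against 24.9% of those features. Cd2 and Cd5 are not among them.

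Between icariin and control kidneys, 0 of 9 genes were called by limma with no filter, against 0.0628% of features called lower and 0.1% called higher, and 0.227% called lower with the filter. Neither edgeR nor DESeq2 called any, and 6 of 9 had an unadjusted p below 0.05 by limma. The share of all features at that unadjusted p is not given, so this count and the like counts below cannot be judged against it. All 9 means were below control. Icariin lay wholly below control in 7 of 9 genes, against 10.2% of the 16731 features that met the filter, and Cd4 and Coro1a overlapped. By limma with no filter the differences were -0.78 for Nkg7 (adjusted p = 0.11), -0.53 for Cd3e (adjusted p = 0.17), -0.50 for Ptprc (adjusted p = 0.4), -0.43 for Lck (adjusted p = 0.54) and -0.20 for Cd4 (adjusted p = 0.88). Without icariin 3 the Cd4 difference was 0.06 ± 0.21. The comparisons share libraries, and a p above the threshold does not show that icariin and control kidneys were alike.

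For 4 of the genes the authors' table of selected mRNAs gives length-scaled levels in icariin and CIAKI libraries, which allows levels of different genes to be set side by side. In icariin kidneys Cd4 stood at 7.39 ± 2.18, Coro1a at 5.24 ± 1.46, Ptprc at 2.85 ± 0.667 and Lck at 0.752 ± 0.155 FPKM (SD, n = 3). In CIAKI kidneys Cd4 stood at 3.04 ± 0.798, Coro1a at 1.81 ± 0.175, Ptprc at 1.24 ± 0.14 and Lck at 0.243 ± 0.0544 FPKM (SD, n = 3). The order of the 4 genes by mean was the same in both groups. Lck was the lowest in every library.

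Within groups, some libraries stood apart for several genes. On log2(CPM + 1), icariin 3 lay below its group mean by 0.52 for Cd4, 0.46 for Coro1a, 0.41 for Ptprc and 0.34 for Cd53. For the T and NK cell genes its deviation ran from -0.18 for Cd3e to 0.11 for Cd2, which was highest of its group there. Adding 1 CPM shrinks the deviations of genes this low, so their size cannot be set against that of Cd4 or Ptprc. In CPM, Cd3e had 0.343 in icariin 3 against 0.628 and 0.609 in icariin 1 and 2. Cd5 and Nkg7 were lowest in icariin 1, and Cd2 in icariin 2. CIAKI 3 lay below its mean by 0.43 for Cd4 and 0.35 for Cd53, and above it by 0.11 for Lck. For Cd3e it lay below by 0.14, at 0.0311 CPM from 2 reads against 0.228 and 0.163 CPM in CIAKI 1 and 2. Summed over 19 monocyte and macrophage genes, icariin libraries had 416, 406 and 335 CPM, CIAKI libraries 354, 303 and 237 CPM and control libraries 407, 395 and 353 CPM. Much of each sum was Lyz2 alone, at 226, 231 and 193 CPM in icariin, 196, 167 and 144 CPM in CIAKI, and 236, 228 and 197 CPM in control libraries. Library 3 had the lowest sum in all 3 groups, while in control 3 Cd4, Ptprc and Coro1a deviated by -0.09, -0.03 and -0.03. The part of those cells in the deviations was not tested.

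Each T or NK cell gene was next set against Ptprc of the same library. Per 100 Ptprc reads, Cd3e had 3.12, 3.27 and 2.79 reads in icariin, 2.93, 1.98 and 0.475 in CIAKI, and 4, 5.15 and 5.92 in control kidneys. Nkg7 had 2.21, 5.17 and 4.95 reads in icariin, 0.924, 4.86 and 2.85 in CIAKI, and 7.06, 8.21 and 7.84 in control kidneys. For both genes every CIAKI and every icariin kidney lay below every control kidney. Lck had 9.28, 13.3 and 13.3 reads per 100 Ptprc reads in icariin, 8.94, 6.12 and 12.1 in CIAKI, and 12.9, 10.9 and 14.0 in control kidneys, and these overlap. On the log2 scale the CIAKI to control difference in the ratio was -1.82 for Cd3e, -1.72 for Nkg7, -0.97 for Cd2, -0.55 for Cd5 and -0.53 for Lck, without overlap for Cd3e, Nkg7 and Cd2. All 5 ratios overlapped between icariin and CIAKI. Between icariin and control, Cd3e (-0.70), Nkg7 (-1.0) and Cd5 (-1.17) did not overlap. How often ratios of other features to Ptprc fail to overlap is not given, so these counts have no share to be judged against. In 15 two-sided exact permutation tests the smallest p was 0.1, the smallest that 3 against 3 can give, and the smallest adjusted p was 0.25, so none could pass.

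**Figure D3:**
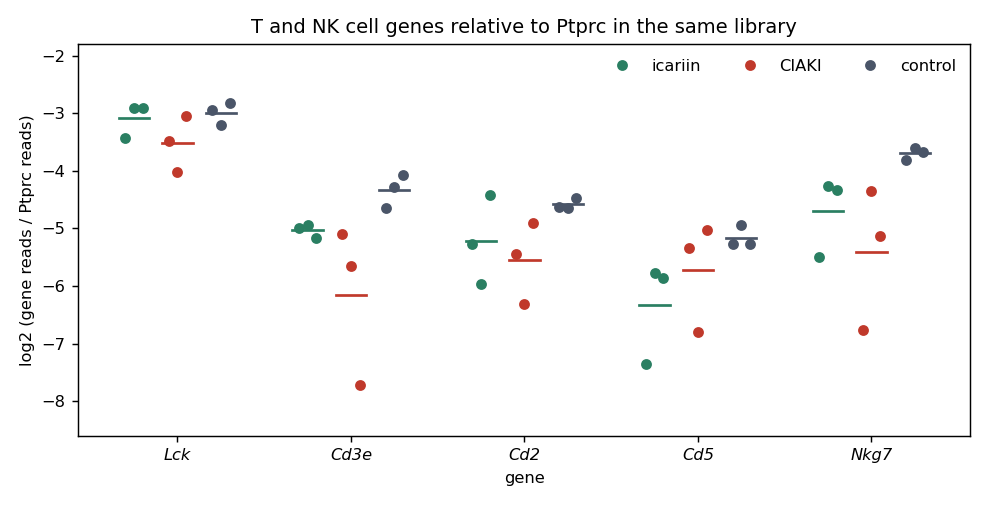
Log2 ratio of the reads of 5 T or NK cell genes to the Ptprc reads of the same library, in icariin, CIAKI and control kidneys; points are libraries and bars group means. Levels cannot be compared between genes because length is not taken out. The lowest point, at -7.72 for Cd3e, is CIAKI 3 and rests on 2 reads.

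The other genes of the T cell receptor machinery moved mostly with Cd3e and Lck. Of 16 genes of the complex and its signalling, 10 fell and 1 rose in CIAKI against control by limma with no filter, with a median log2 fold change of -0.57 against -0.01 over all features. In icariin against CIAKI, 6 rose and 0 fell, and 5 rose under quantile normalization. Among the 7 that met the filter, 4 rose, and 1 rose under quantile normalization. Zap70, the kinase recruited to phosphorylated CD3 chains, had 0.628, 0.665 and 0.542 CPM in icariin, 0.108, 0.178 and 0.140 CPM in CIAKI, and 1.01, 1.45 and 1.26 CPM in control kidneys. It fell in CIAKI (-0.97, adjusted p = 0.00037) and rose in icariin against CIAKI (0.50, adjusted p = 0.0077). The other CD3 chains were scarce: Cd3d had 59, 5 and 107 reads over the 3 icariin, 3 CIAKI and 3 control libraries, Cd3g had 59, 9 and 147, and the zeta chain Cd247 had 77, 15 and 140. All 3 fell in CIAKI, and Cd3d and Cd247 rose in icariin against CIAKI. Themis, needed in T cell development, fell too (-0.61, adjusted p = 0.0016). The exception was Rasgrp1, a Ras activator of lymphocytes, which rose in CIAKI (1.04, adjusted p = 0.0058), at 10.9 to 15.7 CPM against 4.61 to 7.15 CPM in control kidneys. In this list 8 of 16 genes were below 1 CPM in all 9 libraries.

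Of 17 T cell surface molecules, 11 fell and 0 rose in CIAKI, and 6 rose and 0 fell in icariin against CIAKI. With the filter and quantile normalization, 2 rose and 1 fell of 10 in icariin against CIAKI, where 4 rose and 0 fell before. Cd28, the co-stimulatory receptor of T cells, had 11.1, 8.46 and 5.93 CPM in icariin, 0.914, 1.81 and 1.41 CPM in CIAKI, and 10.4, 11.0 and 10.8 CPM in control kidneys. Cd28 fell by 2.32 on log2(CPM + 1) in CIAKI (adjusted p = 0.00034) and rose by 1.98 in icariin against CIAKI (adjusted p = 0.00079). By edgeR its fall was -2.95, against -3.30 for the scarcer Cd7. Its control level lay far above that of Cd3e, at 1.00 to 1.39 CPM, with gene length not taken out. Which cells the Cd28 reads came from was not tested. Cd8a, the CD8 alpha chain, fell (-0.93, adjusted p = 0.00078) and rose in icariin against CIAKI (0.47, adjusted p = 0.017). Cd6, a relative of Cd5, fell in CIAKI (-0.84, adjusted p = 0.0015), and its icariin to CIAKI difference was 0.27 (adjusted p = 0.15). Foxp3 of regulatory T cells and Cd40lg, the helper molecule, did not pass and had 17 and 6 reads over the CIAKI libraries.

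Of 14 cytotoxic and NK cell genes, 8 fell and 0 rose in CIAKI, and 3 rose and 0 fell in icariin against CIAKI, where edgeR called 6 higher. The chemokine Ccl5 had 1.03, 0.821 and 0.763 CPM in icariin, 0.349, 0.416 and 0.388 CPM in CIAKI, and 2.85, 1.91 and 2.11 CPM in control kidneys. Its fall in CIAKI passed (-1.24, adjusted p = 0.00072) and its icariin to CIAKI difference did not by limma (0.43, adjusted p = 0.069), though it did by edgeR (1.16, adjusted p = 0.023). Ctsw, a protease of cytotoxic cells, fell by 1.36 (adjusted p = 0.00073), and Prf1, the pore protein perforin, fell by 1.16 (adjusted p = 0.0022). In icariin against CIAKI, Ctsw rose by 0.74 (adjusted p = 0.012) and Prf1 by 0.82 (adjusted p = 0.011). The granzyme gene Gzmb and the NK receptor gene Ncr1 did not pass in any comparison.

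Of 15 transcription factors of lymphocytes, 6 fell and 1 rose in CIAKI, and 3 rose and 2 fell in icariin against CIAKI. Among the 12 that met the filter, 5 fell and 2 rose in CIAKI, against 20.5% of features called lower and 20.8% higher. In icariin against CIAKI, 2 of the 12 rose and 2 fell, against 19.2% of features called higher and 20.2% lower. Ikzf1, which encodes Ikaros, had 5.33, 4.76 and 3.57 CPM in icariin, 1.52, 1.66 and 1.46 CPM in CIAKI, and 5.82, 5.89 and 6.88 CPM in control kidneys. It fell (-1.50, adjusted p = 0.00079) and rose in icariin against CIAKI (1.11, adjusted p = 0.0034). Its relative Ikzf3 fell in CIAKI (-0.97, adjusted p = 0.0023), with an icariin to CIAKI difference of 0.27 (adjusted p = 0.24). Eomes, a T-box factor of cytotoxic lymphocytes, went the other way. It had 0.536, 0.340 and 0.354 CPM in icariin, 1.41, 2.04 and 1.62 CPM in CIAKI, and 0.438, 0.632 and 0.515 CPM in control kidneys, and rose in CIAKI (0.81, adjusted p = 0.0026).

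The regulators and substrates of Lck moved in both directions. Of 14 genes, 6 fell and 3 rose in CIAKI, and 1 rose and 3 fell in icariin against CIAKI. Among the 12 that met the filter, 4 fell and 3 rose in CIAKI, against 20.5% of features called lower and 20.8% higher. In icariin against CIAKI, 1 of the 12 rose and 3 fell, against 19.2% of features called higher and 20.2% lower. These counts were not tested against those shares. Fyn, the other Src family kinase of T cells, which is expressed in many tissues, fell in CIAKI (-0.80, adjusted p = 0.00059), at 11.6 to 12.6 CPM against 20.5 to 23.8 CPM in control kidneys. Its icariin to CIAKI difference was 0.26 (adjusted p = 0.076). Cblb, a ubiquitin ligase that restrains T cell activation and is also broadly expressed, rose (0.53, adjusted p = 0.0086). Csk, the kinase that holds Lck inactive, differed by -0.07 (adjusted p = 0.63). For the interleukin 7 pathway, 4 of 13 genes fell and 4 rose in CIAKI, and 2 rose and 4 fell in icariin against CIAKI. All 13 met the filter, and with it 6 fell and 4 rose in CIAKI, beside the same shares. With the filter, 4 rose and 4 fell in icariin against CIAKI. The cytokine gene Il7 had 0.766, 0.778 and 0.553 CPM in icariin, 2.99, 3.58 and 1.77 CPM in CIAKI, and 1.10, 0.589 and 0.793 CPM in control kidneys. Il7 rose in CIAKI (1.03, adjusted p = 0.0091) and fell in icariin against CIAKI by 1.13 (adjusted p = 0.0067). The shared gamma chain Il2rg fell in CIAKI (-0.77, adjusted p = 0.011), as did the transcription factor gene Stat5a (-1.36, adjusted p = 0.0024), whereas the kinase gene Jak3 rose (0.70, adjusted p = 0.0058).

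Among 14 tested ligands that attract or sustain lymphocytes, 4 fell and 3 rose in CIAKI, and 3 rose and 2 fell in icariin against CIAKI. Of the 13 that met the filter, 3 fell and 4 rose in CIAKI, against 20.5% of features called lower and 20.8% higher. In icariin against CIAKI, 3 of the 13 rose and 3 fell, against 19.2% of features called higher and 20.2% lower. The chemokine Cxcl9 had 0.736, 0.651 and 0.409 CPM in icariin, 0.0722, 0 and 0.0311 CPM in CIAKI, and 1.30, 1.08 and 1.82 CPM in control kidneys. Cxcl9 thus had 8 reads over the 3 CIAKI libraries against 308 over the control libraries. Cxcl10, which acts on the same receptor, CXCR3, had 6.91, 6.04 and 2.38 CPM in icariin, 17.3, 104 and 30.7 CPM in CIAKI, and 5.73, 7.34 and 6.99 CPM in control kidneys. So of these CXCR3 ligands Cxcl9 fell (-1.20, adjusted p = 0.00054) while Cxcl10 rose (2.36, adjusted p = 0.019) in the same CIAKI kidneys. Cxcl12, the ligand of CXCR4, fell by 2.16 (adjusted p = 0.00064), and the adhesion molecule gene Vcam1 fell by 1.12 (adjusted p = 0.0014). Of 12 chemokine receptor and homing genes, 3 fell and 0 rose in CIAKI, among them Cxcr6 (-0.80, adjusted p = 0.014) and the integrin gene Itgb7 (-0.75, adjusted p = 0.018). None of the 12 was called in icariin against CIAKI by limma with no filter, where 4 had an unadjusted p below 0.05, or by edgeR.

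Genes of leukocytes in general moved like Ptprc and Coro1a. Of 27 such genes, 19 fell and 0 rose in CIAKI, and 16 rose and 0 fell in icariin against CIAKI, with medians of -0.97 and 0.65. The integrin gene Itgal fell by 1.67 (adjusted p = 0.00048) and Rac2, a small GTPase of blood cells, by 1.66 (adjusted p = 0.00078). Evl, an actin regulator also found outside leukocytes, stood at 36.7 to 40.2 CPM in icariin, 15.5 to 18.5 CPM in CIAKI and 34.0 to 42.5 CPM in control kidneys. Of Cd52, Selplg and Cytip, none passed in CIAKI against control by limma with no filter, with log2 fold changes of 0.28, 0.05 and 0.03.

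Markers of other blood cells moved with these genes only in part. Of 19 monocyte and macrophage genes, 7 fell and 2 rose in CIAKI, and 6 rose and 0 fell in icariin against CIAKI (4 and 1 under quantile normalization). Adgre1, the macrophage receptor F4/80, fell by 1.84 (adjusted p = 0.00047), Aif1 by 1.71 (adjusted p = 0.0004) and the growth factor receptor gene Csf1r by 0.96 (adjusted p = 0.00065). The scavenger receptor genes Cd163 (0.91, adjusted p = 0.022) and Mrc1 (0.95, adjusted p = 0.023) rose. Cd68 differed by 0.22 (adjusted p = 0.61), C1qa by -0.22 (adjusted p = 0.52) and C1qb by 0.36 (adjusted p = 0.44). Of 10 dendritic cell genes 0 rose and 3 fell, namely Irf8 (-1.46), Cd83 (-1.41) and Xcr1 (-0.85). The dendritic marker Flt3 was not called, yet was higher in every CIAKI kidney (2.14 to 2.56 CPM) than in control kidneys (1.74 to 2.11 CPM). The marker Clec9a overlapped, at 0.565 to 1.82 CPM in CIAKI and 0.78 to 2.34 CPM in control kidneys. Of 14 B cell and plasma cell genes 6 fell and 1 rose: Pou2af1, a B cell coactivator, fell by 1.06 (adjusted p = 0.002), and the adaptor gene Blnk rose by 0.85 (adjusted p = 0.006). The B cell marker Ms4a1 was close to 0, with 4, 0 and 15 reads over the icariin, CIAKI and control libraries. Of 10 tested neutrophil genes 1 fell and 2 rose by limma with no filter, whereas edgeR called 2 lower and 0 higher. Their median log2 fold change was 0.13 by limma and 1.12 by edgeR. Summed over the 11 with a row, they had 1.00 to 2.91 CPM in icariin, 3.21 to 5.36 CPM in CIAKI and 1.64 to 4.43 CPM in control kidneys. Mpo alone gave 2.06 CPM of the 4.43 CPM in control 1. S100a8 had 0.28 to 1.09 CPM in CIAKI and 0.0793 to 0.26 CPM in control kidneys. S100a9 (0.124 to 0.95 against 0 to 0.132 CPM) and Csf3r (1.23 to 1.73 against 0.847 to 1.53 CPM) overlapped between CIAKI and control. None of the 5 platelet genes passed in CIAKI against control by limma with no filter (2 had an unadjusted p below 0.05), and of 9 endothelial genes 3 fell and 1 rose. Between icariin and control kidneys, no gene of the monocyte and macrophage, dendritic, B cell, neutrophil and platelet lists was called by limma with no filter or by edgeR.

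**Figure D4:**
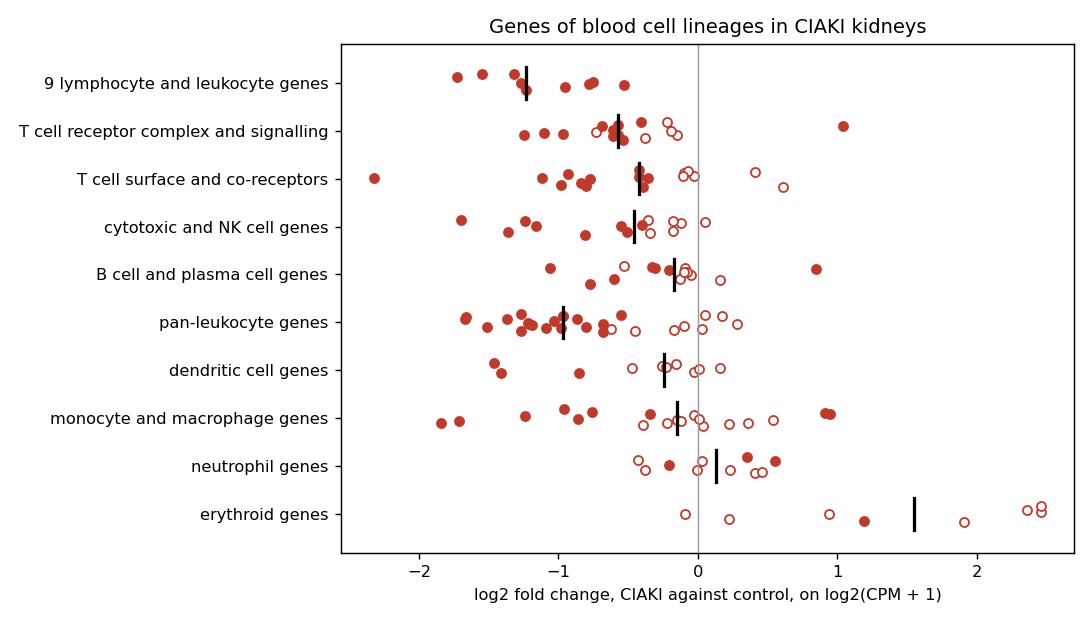
Log2 fold change of CIAKI against control on log2(CPM + 1), with no filter, for the 9 lymphocyte and leukocyte genes (top row) and for lists of blood cell genes; points are genes, filled where the adjusted p is below 0.05, and bars are list medians. The medians run from -1.23 for the 9 genes and -0.97 for the general leukocyte genes to -0.15 for monocyte and macrophage genes and 1.55 for erythroid genes, of which 1 of 8 was called. Adding 1 CPM shrinks the change of low genes, so these medians do not rank the lists. By edgeR with no filter, medians were -2.45 for T cell receptor, -2.40 for cytotoxic and NK cell and -1.77 for T cell surface genes. They were -2.08 for the 9 genes, -1.46 for B cell, -1.24 for general leukocyte and -0.22 for monocyte and macrophage genes.

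Red cell transcripts and those of kidney cells also differed between the groups' libraries. Summed over 8 erythroid genes, levels were 413, 1599 and 1435 CPM in icariin, 2718, 2799 and 2256 CPM in CIAKI, and 1594, 415 and 400 CPM in control kidneys. Slc4a1, a gene of this list, stood at 122 to 213 CPM across the 9 libraries. It gave 213 CPM of the sum in icariin 1 and 176 CPM of that in control 2. The CIAKI kidneys, lowest in lymphocyte genes, were thus highest in red cell transcripts, while icariin 1 and control 2 and 3 had the least. Summed over 10 genes of kidney cell identity, levels were 21501 to 22408 CPM in icariin, 9663 to 12505 CPM in CIAKI and 23391 to 24189 CPM in control kidneys, and 8 of these 10 fell in CIAKI. Summed over 5 injury genes, levels were 272 to 551 CPM in icariin, 1888 to 6053 CPM in CIAKI and 203 to 464 CPM in control kidneys. CPM are shares of a library, and the part of such shifts, or of blood in the tissue, in the lower lymphocyte genes was not tested. Genes of thymus and lymph node, such as Rag1 and Dntt, were checked as a sign of lymphoid tissue taken with the kidney, and the sum of the 6 reached at most 1.13 CPM in a library.

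Finally, the genes whose levels followed Lck and Ptprc most closely over the 9 libraries were listed as a description, by Pearson correlation on log2(CPM + 1) over 13186 genes. The libraries share their groups, so a gene that differs between groups in the same order scores high. The 8 closest to Lck were Slc16a6 (r = 0.993), Galns (0.99), Ighm (0.99), Vegfd (0.988), Dbnl (0.988), Cxxc4 (0.987), Nes (0.987) and Antxr1 (0.986). Of these Ighm, the heavy chain of IgM, is a B cell gene, with means of 5.59 CPM in icariin, 1.57 CPM in CIAKI and 10.1 CPM in control kidneys. The 8 closest to Ptprc were Apcs (r = 0.994), Adgre1 (0.993), Sdc3 (0.992), Pou2f2 (0.991), Coro1a (0.989), Klrk1 (0.989), Rac2 (0.988) and Klra2 (0.988). Klra2 belongs to a family of NK receptor genes with close copies, so its reads may be split between them. Among the 9 genes, r with Ptprc ran from 0.737 for Cd5 to 0.989 for Coro1a, and r with Lck from 0.807 for Cd5 to 0.954 for Coro1a.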

How the data were processed

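Total RNA of whole kidneys from 9 rats was sequenced from TruSeq libraries, per the labels' protocols. The submitters' processing notes name Bowtie 0.12.2 and mm8, a mouse build, while the identifiers are rat Ensembl genes, so the reference stays unclear. Strand, counter and multi-mapping rules: not given in the sources used here. For all genes the authors deposited a table in CPM. Whole reads were recovered from its steps for 100% of values (within 0.1 read), and they matched every one of the 23850 counts in the authors' deposited table of 3975 selected mRNAs, which also holds FPKM. Since the libraries of a group are separate rats per the labels, the spread is that between animals.

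The test was limma 3.58.1 (R 4.3.3) with an intensity trend on log2(CPM + 1), all 9 libraries in 1 fit, on the 16731 features that reached 1 CPM in 3 libraries or more, and again on every feature with a read. P-values were adjusted by Benjamini-Hochberg over all features tested, and called below 0.05. edgeR 4.0.16 and DESeq2 1.42.0 were run on the recovered reads, and the code was tested on simulated data. The genes and gene lists were chosen with earlier results of these data known. Outside the 10 genes, each list contributes up to 3 genes of smallest p in CIAKI against control, called genes that moved against their list, and cell markers. Csk, the other CD3 chains, Il2rg, Jak3, Cd52, Selplg, Cytip, Foxp3, Cd40lg and Gzmb were named outside that rule, after their values were seen. Other scalings, filters, pseudocounts and left-out libraries were tried. Figures and ratios were made with Python 3.11.15 and scipy 1.17.1. Some genes of the lists are not reported here. Sequences are from RefSeq (GRCr8).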

Additional observations from a re-analysis of the deposited data

How the results depend on the processing

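For CIAKI against control, all 185 alternative values of the 9 genes (Cd2 and Cd5 with no filter) kept their direction and passed the threshold, including those without each library. Most of the Cd3e and Nkg7 fits among them used the filter, which these 2 genes met only through control, the higher group here. With no filter, 8 or 9 of the 9 passed with a library left out. Cd53 lost its call in 4 of 19 alternatives with no filter, and each other gene in 0. For icariin against CIAKI, 153 kept their side of the threshold, 22 newly passed (Nkg7, Cd3e and Cd53) and 10 no longer passed (Cd2). Nkg7 and Cd3e met the filter in those fits only through control. With no filter, Cd3e lost its call in 8 of 19 alternatives, Cd2 in 10 and Cd4 in 2, Nkg7 gained one in 4, and Cd53 and Cd5 in 0. The number of the 9 genes called with no filter in icariin against CIAKI was 3 of 9 when only the 2 groups entered the fit, against 6, and 4 to 6 with a library left out. The cause was not tested. That count with each alternative was added after seeing the data. For icariin against control, no alternative called any of the 9. The 1 value that reversed was Cd4, at -0.36 to 0.06 with a library left out, the upper end without icariin 3. The number of all features called between icariin and control was unstable: 105 in the main test, 523 by DESeq2, 52 with no filter and 31 to 127 with a library left out. The labels' replicate numbers were not taken as pairs, since same-numbered libraries deviated together with correlations of -0.03 to 0.08, and differently numbered ones with -0.10 to 0.04. With the replicate block, Nkg7 (log2 fold change 0.45, adjusted p = 0.048) and Cd53 (0.45, adjusted p = 0.047) passed in icariin against CIAKI, and with no filter Nkg7 passed and Cd3e no longer did. The block changed no other call among the 9 genes. Scaling moved the median of all features by less than 0.1, yet quantile normalization left 4 of the 9 genes called in icariin against CIAKI with no filter. Cd3e, Cd2, Cd5 and Nkg7, with 32 to 45 reads over the CIAKI libraries, are limited by counting error.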
